A study of Mus musculus with 8 samples.

Results

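Genes of ribosome biogenesis and RNA polymerase I were examined in regulatory T cells (Tregs) made in culture with or without oxPAPC. The set holds 50 genes, chosen by gene name, of 19330 genes in the deposited count table, and all 50 were in the table and passed the filter on low counts that left 16434 genes for testing. The list was drawn up with earlier results of these data known, so every count over it is a description of these genes and no independent evidence. Naive CD4+ T cells from the spleen of B6 mice were polarized to Tregs for 3 days in both groups, without oxPAPC in 4 control libraries and with oxPAPC in 4 treated libraries. The mixture oxPAPC consists of oxidized phospholipids made from the phospholipid PAPC. The sources used here do not give its dose, the content of the control medium or whether replicates came from separate mice or cultures. P-values therefore measure only the spread between these libraries, which may be technical.

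Ribosomes are built in the nucleolus. RNA polymerase I transcribes the ribosomal RNA precursor there. Small nucleolar RNA-protein particles (snoRNPs) modify the precursor, a large early assembly called the small-subunit processome folds and cuts it, and further factors mature the small (40S) and the large (60S) subunit and are then released. Activated T cells enlarge their nucleoli and raise ribosome production before they divide, and the transcription factor Myc is a known activator of many of these genes. The messenger RNA of the assembly factors was examined here. Production of ribosomal RNA, nucleolar size and protein synthesis were not measured. Each library is bulk RNA, in which fewer cells of a type and less RNA per cell cannot be told apart.

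Library totals ran from 14017583 to 21619731 counts, and a gene of the set had between 79 (Gar1) and 32436 (Npm1) counts in a library. Treg and T cell markers were present at high levels: Foxp3, the lineage factor of Tregs, had means of 154 and 145 CPM (counts brought to a common library total after TMM scaling) in control and oxPAPC libraries. The noncoding gene Gm26917 lies on chromosome 17 between 39843013 and 39846341 and was listed with structural and ribosomal noncoding RNA. It took 8.59% to 29.1% of the counts of a control library and 9.35% to 19.4% of those of an oxPAPC library. Whether its counts hold ribosomal RNA was not tested. Some markers of several other cell types were higher in the oxPAPC libraries. Among B cell markers Pax5, Ebf1 and Ms4a1 rose, while Cd79a, Cd79b and Cd22 did not pass. Cd79b went the other way, with 4.72, 5.51, 6.85 and 4.74 CPM in control and 2.84, 4.1, 4.06 and 3.6 CPM in oxPAPC libraries (log2 fold change -0.58, edgeR adjusted p = 0.0983). The macrophage and monocyte markers, 5 of 7 of which are in the table, summed to 3.77 to 4.8 CPM in control and 9.09 to 11.3 CPM in oxPAPC libraries, and 1 of the 4 tested rose, Mpeg1, from a mean of 0.203 to 4.02 CPM. The dendritic cell markers, 4 of 6 in the table, summed to 6.19 to 10.8 and 12.5 to 15.3 CPM, with Flt3 higher (mean 0.184 to 1.06 CPM) among the 3 tested. The 2 CD8 markers summed to 6.72 to 8.9 and 10.9 to 18.7 CPM, and Cd8a rose from a mean of 2.17 to 6.81 CPM while Cd8b1 did not pass. The 3 NK cell markers in the table summed to 54.5 to 82.8 and 71.2 to 106 CPM, nearly all of it Nkg7, which did not pass, while Klrk1 rose from a mean of 0.601 to 2.66 CPM. Whether such cells were present was not tested, nor was any part of theirs in the values of the ribosome biogenesis genes.

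Most of the 50 genes were higher in the oxPAPC libraries, and none passed the test in the other direction. In the edgeR quasi-likelihood fit, 36 of 50 genes rose at a Benjamini-Hochberg adjusted p under 0.05, against 6.75% of all tested genes called higher, while 0 fell, against 6.52% called lower. At an unadjusted p under 0.05 the count in either direction was 44 of 50, against 27.5% of all tested genes. The median log2 fold change of the 50 genes was 0.76, beside -0.01 for all tested genes. Of the 36 genes that rose, 12 had a fold of at least 2, 22 a fold between 1.5 and 2 and 2 a smaller fold. The libraries of the groups did not overlap, with oxPAPC higher, for 35 genes, against 9.5% of all genes, and did not overlap in the other direction for 1 gene, Npm1, against 9.86%. Of the 14 genes that did not pass, 13 had a log2 fold change above 0. With scaling by library totals and no TMM, all genes had a median of 0.12, with 71.6% of all calls higher in place of 50.9%, and the 50 genes a median of 0.89, so that their distance from all genes was 0.77 under either scaling. The fit with the Gm26917 share as covariate, added after the data were seen, called 32 of the 50 genes higher and 0 lower.

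**Figure D1:**
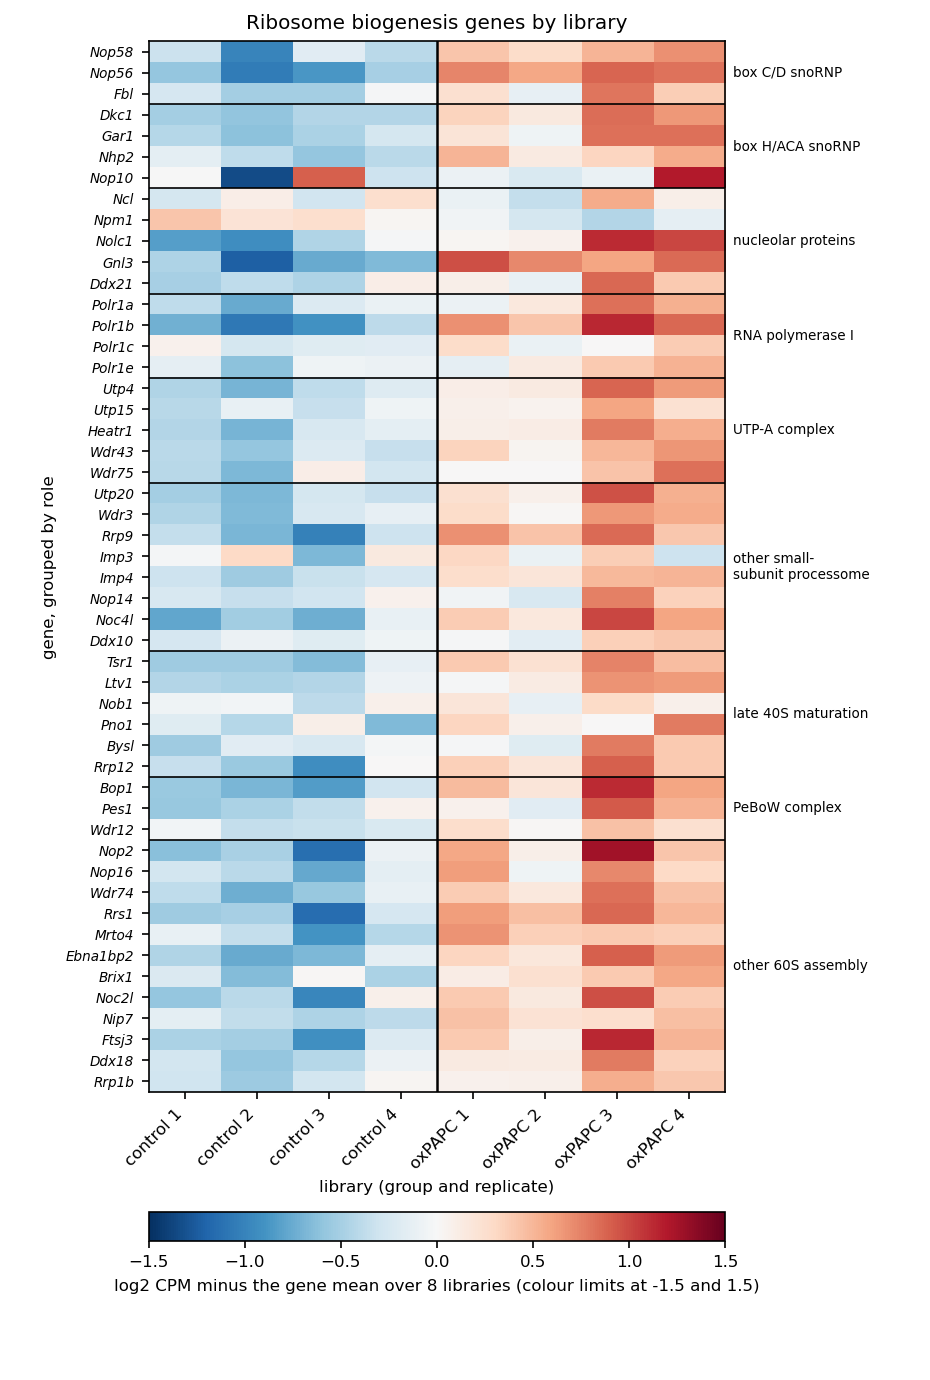
Log2 CPM of each of the 50 genes in each of the 8 libraries, minus the mean of that gene over the libraries, with genes grouped by role (rows) and libraries by group (columns). Red is above and blue below the mean of the gene. In oxPAPC replicates 1 to 4, 41, 36, 48 and 48 of the 50 genes were above their mean, and 2 to 10 genes in a control library.

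The libraries differed in level within each group as well. Npm1 and Ncl had by far the largest CPM of the set, without regard to gene length, and were set apart after values were seen. The other 48 genes summed to 1334, 1194, 1230 and 1520 CPM in control replicates 1 to 4. Their sum was 2185, 1898, 2829 and 2471 CPM in oxPAPC replicates 1 to 4, so that every oxPAPC library lay above every control library. With Npm1 and Ncl included the groups overlapped. All 50 genes summed to 3330, 3073, 3052 and 3271 CPM in control replicates 1 to 4. In oxPAPC replicates 1 to 4 the 50 genes summed to 3762, 3249, 4353 and 4041 CPM, with replicate 2 below control replicates 1 and 4. Among the oxPAPC libraries, replicate 3 held the highest value of 35 of the 50 genes and replicate 2 the lowest of 36. Among the control libraries, replicate 4 held the highest value of 33 genes and replicate 2 the lowest of 27. The Gm26917 share was 19.7%, 29.1%, 8.59% and 16% in control replicates 1 to 4. In oxPAPC replicates 1 to 4 it was 19.4%, 16.6%, 9.51% and 9.35%. Its relation to the summed CPM was not tested. The spread of log2 CPM was larger in the oxPAPC group for 36 genes and larger in the control group for 14. The same count was not made over all tested genes. Npm1 and Ncl together made up 53.6% to 61.1% of the summed CPM of the 50 genes in control libraries and 35.0% to 41.9% in oxPAPC libraries.

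The box C/D snoRNP genes rose. These particles guide ribose methylation of ribosomal RNA, with Nop56 and Nop58 as core scaffold proteins and Fbl (fibrillarin) as the methyltransferase. Nop56 had 68.4, 49.3, 55.8 and 72.5 CPM in control replicates 1 to 4 and 169, 152, 187 and 179 CPM in oxPAPC replicates 1 to 4. No oxPAPC library came near the control range, and the log2 fold change was 1.48 ± 0.16 (SE, edgeR adjusted p = 6.24e-05). Nop58 went from 46.8, 29.6, 51.9 and 44.2 CPM to 78.4, 71.1, 83.5 and 93.9 CPM (log2 fold change 0.92 ± 0.17, SE, edgeR adjusted p = 0.00315). For Fbl, control libraries had 47.6, 39.7, 39.9 and 56.2 CPM and oxPAPC libraries 66.9, 52.0, 99.2 and 73.3 CPM. Here oxPAPC replicate 2 lay below control replicate 4. For Fbl the log2 fold change was 0.67 ± 0.19 (SE, edgeR adjusted p = 0.0321), and the call was lost without any of control replicates 1 to 3 or of oxPAPC replicates 1, 3 and 4 (0.0533 to 0.0976) and with the Gm26917 covariate (0.0809).

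Of the 4 box H/ACA snoRNP genes, which guide conversion of uridine to pseudouridine in ribosomal RNA, 3 rose. Dkc1 encodes dyskerin, the pseudouridine synthase of the particle. It had 22.9, 21.7, 24.2 and 24.2 CPM in control and 41.3, 36.2, 58.3 and 51.5 CPM in oxPAPC libraries, with control values within a narrow band (log2 fold change 1.01 ± 0.16, SE, edgeR adjusted p = 0.000882). Nhp2, an RNA-binding core protein, had 75.9, 64.1, 55.9 and 63.2 CPM against 119, 91.9, 105 and 123 CPM (log2 fold change 0.76 ± 0.15, SE, edgeR adjusted p = 0.0042). Gar1, a further core protein, rose by 0.93 on the log2 scale from the lowest counts of the set. Nop10, the smallest core protein, did not pass (log2 fold change 0.30 ± 0.39, SE, edgeR adjusted p = 0.673). Its values were 16.4, 6.49, 30.7 and 13.3 CPM in control and 15.5, 14.1, 15.4 and 37.8 CPM in oxPAPC libraries. A single library stood high in each group, and without oxPAPC replicate 4 the log2 fold change of Nop10 was -0.16.

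Of the 4 RNA polymerase I subunits in the set, Polr1b and Polr1a rose and Polr1c and Polr1e did not pass. Polr1b, the second-largest subunit, had 9.44, 7.39, 8.32 and 11.9 CPM in control and 25.1, 20.8, 34.0 and 28.3 CPM in oxPAPC libraries. Its log2 fold change was 1.54 ± 0.19 (SE, edgeR adjusted p = 0.000174), level with that of Gnl3 at the top of the set. Polr1a, the largest, catalytic subunit, had 24.7, 19.1, 27.9 and 29.9 CPM against 30.3, 35.8, 57.1 and 46.6 CPM, and its lowest oxPAPC library was just above the highest control library. For Polr1a the log2 fold change was 0.74 ± 0.20 (SE, edgeR adjusted p = 0.0238). Polr1a did not pass when control replicate 1, control replicate 2, oxPAPC replicate 3 or oxPAPC replicate 4 was dropped (edgeR adjusted p from 0.0575 to 0.0753). Polr1c, a subunit shared with RNA polymerase III, had 57.5, 46.1, 48.5 and 48.9 CPM against 66.7, 51.6, 55.4 and 71.8 CPM and did not pass (log2 fold change 0.29 ± 0.14, SE, edgeR adjusted p = 0.213). Polr1e, a subunit particular to RNA polymerase I, had a log2 fold change of 0.46 (edgeR adjusted p = 0.108). The difference between subunits was not tested.

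**Figure D2:**
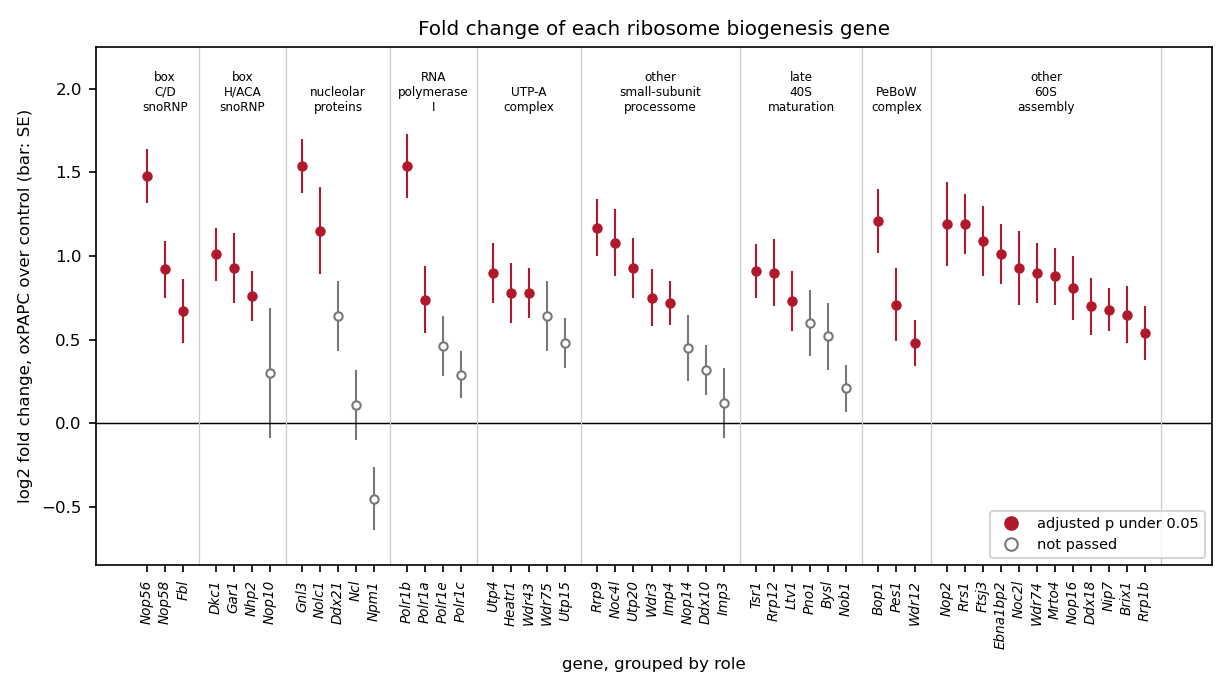
Log2 fold change of oxPAPC over control for each of the 50 genes (points, with SE as bars), grouped by role, from the edgeR fit over all genes. Filled red points passed an adjusted p of 0.05 and open grey points did not; values run from -0.45 for Npm1 to 1.54 for Gnl3 and Polr1b.

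Nucleolar proteins of broad function were the group with the widest range of fold changes. Gnl3, which encodes the nucleolar GTPase nucleostemin, had 29.3, 17.4, 23.9 and 25.5 CPM in control and 78.9, 66.5, 61.1 and 72.8 CPM in oxPAPC libraries, far apart in every library (log2 fold change 1.54 ± 0.16, SE, edgeR adjusted p = 6.48e-05). Nolc1, a chaperone of snoRNPs, went from 18.5, 17.1, 23.9 and 32.3 CPM to 33.4, 34.2, 71.2 and 65.5 CPM. The oxPAPC values of Nolc1 fell into a lower and a higher pair of libraries (log2 fold change 1.15 ± 0.26, SE, edgeR adjusted p = 0.011). Ncl encodes nucleolin, an abundant RNA-binding protein of the nucleolus, and had 346, 445, 339 and 494 CPM against 385, 324, 610 and 438 CPM. These ranges overlap almost fully, the log2 fold change was 0.11 ± 0.21 (SE, edgeR adjusted p = 0.783), and without oxPAPC replicate 3 it was -0.09. Npm1 encodes nucleophosmin, a histone and ribosome chaperone, and was the most abundant gene of the set. It had 1650, 1430, 1480 and 1260 CPM in control and 1190, 1030, 913 and 1130 CPM in oxPAPC libraries, every oxPAPC library being below every control library. Its log2 fold change was -0.45 ± 0.19 (SE, edgeR adjusted p = 0.136), which did not pass, whereas DESeq2 (adjusted p = 0.0307) and the authors' deposited table (0.0297) called it lower. Ddx21, an RNA helicase active in ribosomal RNA transcription and processing, had a log2 fold change of 0.64 (edgeR adjusted p = 0.0577) and passed with DESeq2 (0.0331), with library size scaling (0.0499), with a filter at 5 CPM (0.0388) and without control replicate 4 or oxPAPC replicate 2 (0.0306 to 0.0331). Npm1 has processed pseudogenes of near-identical sequence, so its counts are uncertain where reads could be shared.

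**Figure D3:**
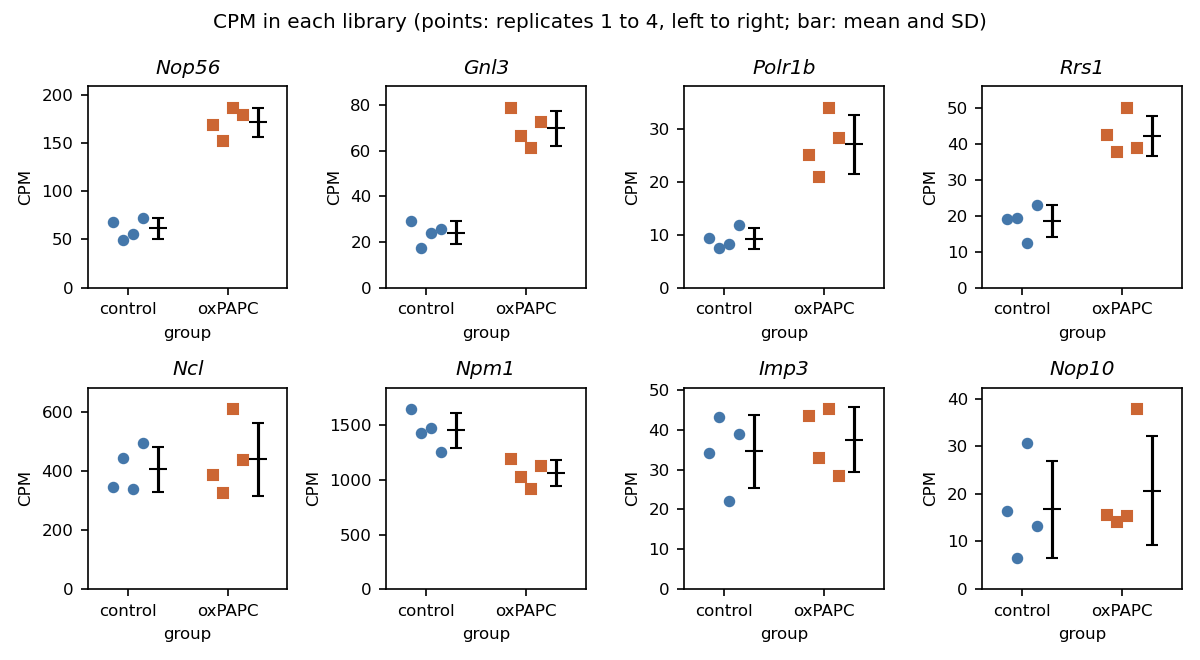
CPM of 8 genes in each library (control as circles, oxPAPC as squares, replicates 1 to 4 from left to right, bars for mean and SD, n = 4 each, axes from 0). Nop56, Gnl3, Polr1b and Rrs1 are higher in all oxPAPC libraries, Npm1 is lower in all of them, and Ncl, Imp3 and Nop10 overlap.

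The UTP-A complex binds the nascent ribosomal RNA precursor first and ties its transcription to processing. Of its 5 genes 3 rose. Wdr43 had 33.2, 29.4, 38.2 and 34.5 CPM in control and 55.6, 45.4, 62.0 and 69.6 CPM in oxPAPC libraries, apart in all libraries (log2 fold change 0.78 ± 0.15, SE, edgeR adjusted p = 0.00429). Utp4 (cirhin) went from 17.9, 15.1, 18.8 and 21.4 CPM to 26.4, 27.0, 44.9 and 38.1 CPM (log2 fold change 0.90 ± 0.18, SE, edgeR adjusted p = 0.00575). Heatr1 rose by 0.78 on the log2 scale. Wdr75 had 15.5, 12.9, 22.2 and 17.1 CPM against 20.7, 20.8, 27.7 and 36.7 CPM, with control replicate 3 above the 2 lowest oxPAPC libraries, and narrowly missed the threshold (log2 fold change 0.64, edgeR adjusted p = 0.0545). Dropping control replicate 3, oxPAPC replicate 1 or oxPAPC replicate 2 took it past the threshold (0.0197 to 0.0487), and it also passed with RLE scaling (0.0478) and with DESeq2 (0.0295). Utp15 was also close (log2 fold change 0.48, edgeR adjusted p = 0.0521), with groups that did not overlap, and passed without oxPAPC replicate 2 (0.0481), with RLE scaling (0.05), with a filter at 5 CPM (0.0249) and with DESeq2 (0.0442).

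Of the 8 other genes of the small-subunit processome 5 rose. Rrp9, a protein of the U3 snoRNP that base-pairs with the precursor, had 28.8, 22.9, 18.3 and 29.9 CPM in control and 59.3, 49.7, 66.8 and 48.9 CPM in oxPAPC libraries (log2 fold change 1.17 ± 0.17, SE, edgeR adjusted p = 0.000659). Noc4l, a partner of Nop14, went from 19.3, 23.2, 20.0 and 30.8 CPM to 43.4, 37.1, 66.8 and 50.2 CPM (log2 fold change 1.08 ± 0.20, SE, edgeR adjusted p = 0.00281). Both genes were apart in all libraries. Utp20, the UTP-B protein gene Wdr3 and Imp4 rose by 0.93, 0.75 and 0.72 on the log2 scale. Imp3, which acts in a complex with Imp4, did not pass: it had 34.3, 43.1, 22.0 and 38.9 CPM against 43.4, 32.9, 45.2 and 28.3 CPM. Its groups overlap widely, the log2 fold change was 0.12 ± 0.21 (SE, edgeR adjusted p = 0.768), and without control replicate 3 it was -0.05. Nop14 and the helicase gene Ddx10 had log2 fold changes of 0.45 and 0.32 (edgeR adjusted p of 0.164 and 0.192).

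Late maturation of the small subunit was represented by 6 genes, of which 3 rose. Tsr1, a GTPase-like factor that blocks premature joining of the subunit, had 15.6, 15.6, 14.4 and 20.8 CPM in control and 29.7, 26.4, 37.8 and 31.1 CPM in oxPAPC libraries (log2 fold change 0.91 ± 0.16, SE, edgeR adjusted p = 0.00204). Rrp12, an export factor, had 20.2, 17.5, 13.5 and 25.8 CPM against 32.9, 29.2, 47.8 and 33.8 CPM (log2 fold change 0.90 ± 0.20, SE, edgeR adjusted p = 0.00976). Both were apart in every library. Ltv1, also an export factor, rose by 0.73 on the log2 scale (edgeR adjusted p = 0.0165), a call that dropping control replicate 1, control replicate 2 or oxPAPC replicate 4 ended (0.0503 to 0.0581). Nob1, the endonuclease that makes the last cut of the small-subunit RNA, had 30.1, 30.6, 24.1 and 33.3 CPM against 35.7, 29.1, 38.7 and 33.4 CPM. The groups of Nob1 overlap and its log2 fold change was 0.21 ± 0.14 (SE, edgeR adjusted p = 0.366). Pno1, the RNA-binding partner of Nob1, had 0.60 (edgeR adjusted p = 0.0659) and passed without control replicate 3 or oxPAPC replicate 3 (0.0264 to 0.0391) and with DESeq2 (0.0367). Bysl (bystin) had 0.52 (edgeR adjusted p = 0.0973) and passed without oxPAPC replicate 2 (0.0427).

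All 15 genes of large-subunit assembly rose, against 11 of the 19 genes of the small-subunit groups above; the difference between these counts was not tested. The PeBoW complex, made of Pes1, Bop1 and Wdr12, acts in processing of the large-subunit RNA. Bop1 had 23.9, 21.7, 19.6 and 28.8 CPM in control and 48.6, 39.7, 76.0 and 52.9 CPM in oxPAPC libraries (log2 fold change 1.21 ± 0.19, SE, edgeR adjusted p = 0.00113). Pes1 had 24.5, 26.3, 28.3 and 38.0 CPM against 38.1, 32.5, 69.1 and 52.4 CPM, with oxPAPC replicate 2 below control replicate 4. For Pes1 the log2 fold change was 0.71 ± 0.22 (SE, edgeR adjusted p = 0.0448). Pes1 did not pass when any of control replicates 1 to 3 or either of oxPAPC replicates 3 and 4 was dropped (0.0724 to 0.121), nor by limma-voom (0.0615) or with the Gm26917 covariate (0.126). Wdr12 had 21.4, 17.2, 17.5 and 18.9 CPM against 26.4, 22.4, 29.8 and 26.1 CPM, groups that are close but do not overlap (log2 fold change 0.48 ± 0.14, SE, edgeR adjusted p = 0.0337). Dropping any of control replicates 2 to 4 or of oxPAPC replicates 1, 3 and 4 ended its call (0.0599 to 0.103), as did the fit with the Gm26917 covariate (0.0523).

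The 12 other large-subunit genes had log2 fold changes of 0.54 to 1.19, and their groups were apart in all 12. Rrs1, which helps bring the 5S RNA particle into the growing subunit, had 19.1, 19.5, 12.5 and 23.1 CPM in control and 42.5, 37.7, 50.2 and 38.9 CPM in oxPAPC libraries (log2 fold change 1.19 ± 0.18, SE, edgeR adjusted p = 0.000715). Ebna1bp2, an early assembly factor, had 22.9, 18.6, 19.7 and 28.6 CPM against 39.2, 35.2, 58.4 and 48.8 CPM (log2 fold change 1.01 ± 0.18, SE, edgeR adjusted p = 0.00263). Rrp1b, with the largest adjusted p of the group, had 33.3, 28.1, 33.8 and 41.9 CPM against 42.7, 43.2, 59.8 and 54.1 CPM. Its lowest oxPAPC library was just above its highest control library (log2 fold change 0.54 ± 0.16, SE, edgeR adjusted p = 0.0375), and the call ended when any of control replicates 1 to 3 or either of oxPAPC replicates 3 and 4 was dropped (0.0589 to 0.119), with library size scaling (0.0582) and with the Gm26917 covariate (0.0772). The RNA methyltransferase genes Nop2 and Ftsj3 rose by 1.19 and 1.09 on the log2 scale. Noc2l rose by 0.93, Wdr74 by 0.90, Mrto4, a placeholder for a stalk protein, by 0.88 and Nop16 by 0.81. The call of Noc2l was lost with the replicate block (edgeR adjusted p = 0.0541). Nip7 rose by 0.68. The helicase gene Ddx18 rose by 0.70 and Brix1 by 0.65. Brix1 did not pass when control replicate 2, control replicate 4 or oxPAPC replicate 4 was dropped (0.0569 to 0.0674), nor Ddx18 without control replicate 2 (0.0521).

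Levels were compared between genes only per kilobase of annotated exon, counting every exon of GENCODE M21, which understates genes with long retained introns. On this scale Npm1 was highest in both groups, at 548 CPM per kilobase in control and 402 in oxPAPC libraries, followed by Nhp2 at 56.5 and 96.0. The median of the 50 genes was 6.38 CPM per kilobase in control and 11.7 in oxPAPC libraries. Both of the largest RNA polymerase I subunits were near the bottom, Polr1a at 2.14 and 3.58 and Polr1b at 1.6 and 4.67 CPM per kilobase. The 4 box H/ACA genes, whose proteins form a complex together, ranged from 3.93 (Gar1) to 56.5 (Nhp2) CPM per kilobase in control libraries.

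Promoter sequence was set beside these values. RefSeq sequence of GRCm38.p6, from 250 bases before to 50 bases after a start site, was found for 45 of the 50 genes (49 start sites). It was searched on both strands for 5 motifs, none of which contains another: CACGTG (the E-box, bound by Myc with Max and by other factors), CCGGAAG (ETS factors), CGCATGC (a part of the NRF1 site), TCTCGCG (a part of a palindromic promoter element) and CCAAT (bound by NF-Y). The E-box letters were in 18.4% of the 49 promoters, against 7.15% of all 32851 promoters in the table and 9.72% of the 13330 promoters of genes tested here. CCGGAAG was in 36.7%, against 8.86% and 17.2%. CGCATGC was in 8.16% (3.58% and 6.1%), TCTCGCG in 12.2% (2.56% and 5.03%) and CCAAT in 36.7% (37.4% and 37.7%). The 154 promoters of the other genes of ribosome production had similar shares to the set for 2 motifs, with CACGTG in 20.1% and CCGGAAG in 38.3%. A match is a description of the sequence and says nothing about binding in these cells.

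Of the 9 promoters with an E-box, 7 had it in the 50 bases after the start site, which is 14.3% of the promoters of the set, against 1.08% of all promoters and 1.48% of those of tested genes. In the 250 bases before the start it was in 2 of 49 promoters, or 4.08%, against 6.02% and 8.13%. Among the 154 promoters of the other genes of ribosome production, the E-box was after the start in 8.44% and before it in 11.7%. The 9 sites are shown because they carry this pattern: the first 7 lie after the start site and the last 2 before it. Each is given in a window of 30 bases on the strand of the gene, 5′ to 3′, with the E-box in capitals, and the position is that of its first base, counted from 1 at the start site.

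Pes1 (chr11:3963965-3963994, + strand, position 3): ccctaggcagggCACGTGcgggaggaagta
Utp4 (chr8:106893643-106893672, + strand, position 16): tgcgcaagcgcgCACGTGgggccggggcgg
Wdr43 (chr17:71616220-71616249, + strand, position 18): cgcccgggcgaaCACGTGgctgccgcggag
Tsr1 (chr11:74898092-74898121, + strand, position 25): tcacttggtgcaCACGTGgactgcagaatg
Ltv1 (chr10:13193092-13193121, - strand, position 29): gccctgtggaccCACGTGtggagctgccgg
Utp20 (chr10:88826765-88826794, - strand, position 38): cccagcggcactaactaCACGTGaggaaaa
Pno1 (chr11:17211540-17211569, - strand, position 38): tgcgctgtacaaccacgCACGTGttcctct
Nop2 (chr6:125131811-125131840, + strand, 60 bases before the start): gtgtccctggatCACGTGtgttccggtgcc
Imp4 (chr1:34439696-34439725, + strand, 121 bases before the start): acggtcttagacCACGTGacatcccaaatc

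Of these 9 genes 8 rose and Pno1 did not pass, beside 32 that rose of all 45 genes with promoter sequence. A link between the E-box and the rise was not tested. Their log2 fold changes ran from 0.60 for Pno1 to 1.19 for Nop2. The 3 genes of the set with the largest fold changes, Gnl3, Polr1b and Nop56, are not among them: their 300-base promoters hold no CACGTG. The 120 bases before their start sites are shown for comparison, with any of the 5 motifs in capitals. Nop56 has the reverse complement of CCAAT there, and the windows of Gnl3 and Polr1b hold none of the 5 motifs.

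Nop56 (chr2:130274292-130274411, + strand): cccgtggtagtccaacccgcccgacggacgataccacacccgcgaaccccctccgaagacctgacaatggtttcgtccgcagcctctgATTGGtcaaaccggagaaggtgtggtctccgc
Gnl3 (chr14:31019132-31019251, - strand): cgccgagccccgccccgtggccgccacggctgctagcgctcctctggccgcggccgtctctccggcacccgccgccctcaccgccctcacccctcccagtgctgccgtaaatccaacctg
Polr1b (chr2:129100876-129100995, + strand): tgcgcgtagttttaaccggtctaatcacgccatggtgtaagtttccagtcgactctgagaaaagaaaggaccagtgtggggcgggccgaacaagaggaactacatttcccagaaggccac

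Position in the genome and neighbouring genes bear on the counts. The 50 genes lie on 17 chromosomes. In GRCm38, Nop56 spans 130274430 to 130279313 of chromosome 2. Gnl3 is on chromosome 14 between 31012433 and 31019152, Polr1b on chromosome 2 between 129100995 and 129126594 and Npm1 on chromosome 11 between 33152287 and 33163206. In GENCODE M21, 7 genes of the set hold annotated small nucleolar RNA genes on their own strand, Nop58, Nop56, Dkc1, Ncl, Gnl3, Wdr43 and Tsr1. Exons of 19 genes overlap exons of a gene on the opposite strand, such as Nop56 with Idh3b, Gnl3 with Pbrm1 and Dkc1 with Mpp1. No source used here states if the counting read strand, so reads from these overlaps and their antisense partners cannot be told apart.

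Other genes of ribosome production were counted in lists drawn up by gene function, likewise with earlier results of these data known. Of 165 tested genes in 7 lists 56 rose and 0 fell, against 6.75% called higher and 6.52% called lower of all tested genes. The median log2 fold change of the 165 genes was 0.36. At an unadjusted p under 0.05 the count in either direction was 90, beside 27.5% of all tested genes. Without control replicate 2 the count that rose was 31, and without oxPAPC replicate 4 it was 35. In the large-subunit list 24 of 50 rose, led by Ppan, Heatr3 and Rrp15 with log2 fold changes of 1.39, 1.21 and 1.22. Ppan, a processing factor, had 13.8, 11.2, 11.9 and 16.6 CPM in control and 30.1, 27.2, 41.6 and 41.6 CPM in oxPAPC libraries. In the small-subunit processome list 11 of 32 rose, with Rcl1, Pwp2 and Dhx37 at 0.75, 0.98 and 0.97. In the list of small-subunit maturation and export 3 of 13 rose, Cinp (0.63), Dimt1 (0.65) and Tsr2 (0.61). Dimt1 did not pass when any library but control replicate 3 and oxPAPC replicate 3 was dropped (edgeR adjusted p from 0.0627 to 0.111), with library size scaling (0.0591), with a filter at 5 CPM (0.058) or with the Gm26917 covariate (0.0549). Tsr2 did not pass when any library but oxPAPC replicate 4 was dropped (0.0524 to 0.126), by limma-voom (0.0618) or with the Gm26917 covariate (0.059).

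Among 16 other RNA polymerase I subunits and factors 4 rose. Mybbp1a, a nucleolar Myb-binding protein, had the largest change, from 61.0, 60.6, 54.2 and 86.8 CPM to 122, 101, 222 and 150 CPM (log2 fold change 1.18 ± 0.23, SE, edgeR adjusted p = 0.00422). Cd3eap, a polymerase I subunit, rose by 1.05 on the log2 scale and Twistnb, also a subunit, by 0.57, a call that ended when any of control replicates 2 to 4 or either of oxPAPC replicates 1 and 2 was dropped (0.0728 to 0.133) and with a filter at 5 CPM (0.0527). Taf1a, of the promoter selectivity factor, also passed. Ubtf and Rrn3, which recruit the polymerase to ribosomal DNA, had 0.51 and 0.34 (edgeR adjusted p of 0.148 and 0.185). Of 22 genes of the RNA exosome and RNase MRP 9 rose, with Pop1, Rpp14 and Exosc2 at 0.91, 0.83 and 0.83. Of 11 snoRNP assembly genes 3 rose, with Znhit6 at 0.87, Ruvbl1 at 0.79 and Shq1 at 0.66. The call of Shq1 was lost without control replicate 2 (edgeR adjusted p = 0.0541) and that of Ruvbl1 without control replicate 1 or oxPAPC replicate 4 (0.0519 to 0.0579) and with the Gm26917 covariate (0.0599). Of 21 RNA polymerase III genes 2 rose, Polr3e (0.61) and Polr3a (0.49), the latter not without control replicate 1 or oxPAPC replicate 1 (0.0534 to 0.0681). These 2 are 9.52% of that list, near the 6.75% of all tested genes called higher.

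**Figure D4:**
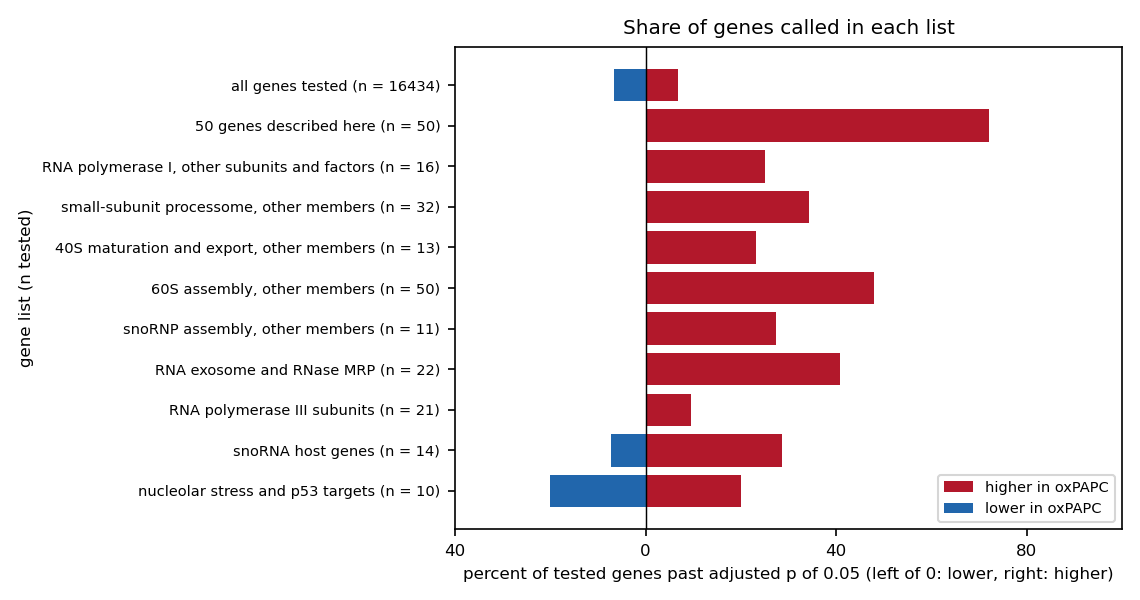
Percent of tested genes in each list past an adjusted p of 0.05, higher in oxPAPC to the right of 0 and lower to the left, with the number tested beside each name. All tested genes have 6.75% higher and 6.52% lower; the 50 genes described here were listed with earlier results known.

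Of 14 tested entries of genes that host small nucleolar RNAs 4 rose and 1 fell. That is 28.6% and 7.14% of the list, against 6.75% and 6.52% of all tested genes. The groups did not overlap with oxPAPC higher for 3 entries and lower for 3, against 9.5% and 9.86% of all genes. Snhg17 and Snhg4, noncoding hosts, rose by 1.10 and 1.01 on the log2 scale and Rcc1 by 0.75. A second entry of Snhg4 had 0.32 (edgeR adjusted p = 0.744). Rcc1 did not pass with the replicate block (edgeR adjusted p = 0.0508). Of 5 entries with a log2 fold change below 0, only Zfas1 passed, and it was named after its values were seen. It had 793, 735, 424 and 533 CPM in control and 366, 372, 162 and 274 CPM in oxPAPC libraries (log2 fold change -1.08 ± 0.27, SE, edgeR adjusted p = 0.0165). Zfas1 did not pass without control replicate 1 or control replicate 2 (0.0506 to 0.0539). Of 10 tested genes of the p53 response, which a disturbed nucleolus is known to trigger, 2 rose and 2 fell. Bax and Sesn2 had log2 fold changes of 0.58 and 0.69, and Bbc3 and Zmat3 of -0.74 and -0.49. Bbc3 did not pass without control replicate 2 (edgeR adjusted p = 0.0582), with library size scaling (0.0569) or with the replicate block (0.0577). Sesn2 did not pass with the replicate block (0.0536). Zmat3 did not pass when any library but control replicate 3 and oxPAPC replicate 3 was dropped (0.0894 to 0.143), with RLE scaling (0.0578), library size scaling (0.262), no filter (0.0555) or the Gm26917 covariate (0.0789).

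The authors' deposited table calls 40 of the 50 genes higher and 1 lower by its adjusted p, at the same threshold, against 7.88% higher and 6.55% lower of the 18316 genes to which the authors' deposited table gives an adjusted p. The 4 genes called higher there and not by edgeR were Ddx21, Utp15, Wdr75 and Pno1, and the lower gene was Npm1.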

How the data were processed

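RNA was measured by RNA-seq in 4 control and 4 oxPAPC libraries. Per the labels' protocols, poly(A) RNA was selected. Per the submitters' processing notes, STAR 2.7.8a, featureCounts 2.0.2, DESeq2 1.30.1 and GRCm38.p6 were used. The authors deposited whole-number counts per gene, not normalized. Per the file headers, the authors' own log2 fold changes, fold ratios, p-values, test scores (statistics), standard errors and mean signal (mean normalized counts) stand beside them. No gene is listed with fewer than 2 libraries of 5 or more counts. Of the gene identifiers, 97.8% have the same version and coordinates in GENCODE M21.

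TMM scaling, filterByExpr and edgeR 4.0.16 (quasi-likelihood, R 4.3.3) were applied to the counts, with Benjamini-Hochberg adjustment over all genes and a threshold of 0.05. A standard error was computed as log2 fold change over the root of F. Depth was 14017583 to 21619731 counts per library, and the biological coefficient of variation common to all genes was 0.207. On simulated data for oxPAPC against control (16434 genes), the test recovered 9 of 67 genes altered 1.5-fold, 37 of 67 altered 2-fold and 59 of 66 altered 4-fold, and 8 of 113 calls were false.

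The members and lists were chosen with earlier results of these data known. Library values are given for the 2 genes with the smallest and the 1 with the largest adjusted p of each role, and from each other list the 3 genes with the smallest adjusted p are named. Npm1, Zfas1, Zmat3, Taf1a, Ubtf and Rrn3 were added after values were seen. Alternatives tried were RLE and library size scaling, omitting the filter, keeping only genes averaging 5 CPM, DESeq2 1.42.0, limma-voom (limma 3.58.1), a replicate block and leaving out each library. The Gm26917 share as covariate and leaving out Gm26917 and Rn7sk were chosen after seeing the data. A marker gene and the sum of its list are not reported here.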

Additional observations from a re-analysis of the deposited data

Results flagged for a closer look

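A search for a library set apart from the rest of its group covered 100 groups of values (50 genes in 2 conditions). Chance gives about 5 such groups, and 5 were found. Nop10 reached 37.8 CPM in oxPAPC replicate 4, with 14.1 to 15.5 elsewhere in that group. Control replicate 4 stood high for Ddx21, at 114 CPM beside 75.7 to 82.1, and for Ltv1, at 15.6 CPM beside 11.9 to 12.2. Polr1e was low in control replicate 2, at 9.58 CPM beside 13.3 to 14.0. Mrto4 was high in oxPAPC replicate 1, at 89.7 CPM beside 71.7 to 73.6.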

How the results depend on the processing

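All 36 genes that rose kept their direction under each of the 17 alternatives, and 27 of them also kept their side of the threshold. The count of genes that rose was 35 to 40 under other scalings, filters and tools and 28 to 40 with a library left out, lowest without control replicate 2. DESeq2 called 40 higher and 1 lower, Npm1. The median log2 fold change ranged from 0.66 with the Gm26917 covariate to 0.89 with library size scaling, and from 0.69 to 0.86 with a library left out. Library size scaling called 458 of all genes lower, and the replicate block 708. With a library left out, 710 to 1057 of all genes were called higher and 680 to 1144 lower, the lowest of both without control replicate 2, and 694 lower without oxPAPC replicate 4. Of the 165 other genes of ribosome production, 31 to 50 rose with a library left out and 33 with the replicate block. Up to 1 of them fell with a library left out, from 0 to 1, which was Nop53 without control replicate 3, and 1 with a filter at 5 CPM, Polr3gl. Log2 fold changes that turned sign were those of Nop10, over -0.16 to 0.78 with a library left out and -0.02 with the Gm26917 covariate, Ncl over -0.09 to 0.24, Imp3 over -0.05 to 0.24, and Foxp3, over -0.33 to 0.09 and at 0.05 with library size scaling. The cause was not tested, and fits without a library have fewer samples. With the replicate block 33 of the 50 genes rose. Fbl, Pes1, Wdr12 and Noc2l lost their call there (edgeR adjusted p of 0.0632, 0.0508, 0.0704 and 0.0541), and Wdr75 gained one (0.0496). Outside the set, Dimt1, Tsr2, Shq1, Ruvbl1 and Polr3a did not pass with the block (0.0771, 0.11, 0.0575, 0.0618 and 0.0624). Neither did Rcc1, Sesn2, Bbc3 and Zmat3 (0.0508, 0.0536, 0.0577 and 0.0993). The pairing of libraries by number was checked on their deviations from group means. The 4 number-matched correlations were 0.321, -0.053, -0.368 and -0.035. Each library was also compared with the 4 libraries of the other group. There 2 of 8 libraries were closest to the library of the same number, as many as random matching gives on average. So few libraries cannot settle whether those of the same number share a mouse or culture. Few changes of 1.5-fold were recovered in the simulation, but that share cannot be carried over to these libraries. Far fewer genes were called in the simulation, so the adjustment asked for a smaller unadjusted p there. Most of the 36 genes that rose had a fold between 1.5 and 2. How many changes of that size were missed was not tested, and genes that did not pass may still differ by 1.5-fold.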
